A study of Mus musculus with 6 samples.

Results

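Voltage-gated and potassium channel genes were examined in the adult mouse vomeronasal organ, a pair of pheromone-sensing tubes on either side of the lower nasal septum. Members were the protein-coding genes of the GENCODE M21 annotation whose symbols begin with Kcn, Cacn, Hcn plus a digit or Scn plus a digit, with 2 symbols left out by the rule. This gave 136 genes of the 35450 in the tables. Poly(A) RNA came from 3 wild-type mice (Cnpy1+/+) and 3 littermates homozygous for a Cnpy1 knockout allele (Cnpy1-/-), all at postnatal day 60. Each genotype had 2 males and 1 female, and both organs of a mouse went into 1 library. How the allele was made and any background shared by both genotypes are not given in the sources used here. Cnpy1 encodes an endoplasmic reticulum protein of the Canopy family.

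Vomeronasal neurons turn receptor activation into a depolarizing current and then into trains of action potentials. Sodium channel alpha subunits form the pore that starts a spike, voltage-gated and calcium-activated potassium channels end it and set the firing pattern, and two-pore and inwardly rectifying potassium channels hold the resting potential. Hcn channels open on hyperpolarization, Cacna1 genes encode calcium channel pores, and accessory subunits change the gating or the surface level of each pore.

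Libraries held 60969508 to 71670766 estimated reads, of which channel genes took 0.237% to 0.280%. Cnpy1 lay between 280.0 and 325.0 CPM (estimated reads scaled to library size, with TMM factors) in wild types and between 67.2 and 77.6 CPM in knockouts, so it was lower in every library labelled knockout. Among defining markers of the tissue, Omp lay between 516 and 879 TPM and Trpc2 between 98.7 and 157 TPM. Skeletal muscle markers summed to 28.2 TPM in wild-type replicate 1 and to 7.89 to 11.8 TPM in the other 5 libraries, so values without that library are given where a call rests on it. Because whole organs were used, fewer cells of a type and less RNA per cell cannot be told apart in any value below.

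The first question was which channels the organ expresses. Levels between genes are given as TPM, which is scaled by transcript length. In wild types, 81 of the 136 genes reached at least 1 TPM in each of the 3 libraries, 43 reached 5 TPM and 27 reached 10 TPM. The knockouts had 79 genes at 1 TPM or more in each library. At the other end, 18 genes stayed under 0.1 TPM in every library. Kcnk18, a two-pore channel, had 0 reads everywhere, which allows at most 0.0419 to 0.0492 CPM per library (3 reads).

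Cacnb3, a cytoplasmic beta subunit of high-voltage-activated calcium channels, had the highest level at 92.2 ± 9.55 TPM (SD, n = 3 mice). Wild-type libraries gave 84.1, 89.9 and 102.7 TPM and knockout libraries 79.3, 65.2 and 87.8 TPM. One knockout thus lay between the wild types on this scale. It was followed by the two-pore channel Kcnk1 at 45.1 ± 0.635 TPM, the potassium accessory subunit Kcnmb2 at 42.8 ± 4.44 TPM and the sodium channel beta subunit Scn3b at 42.1 ± 2.59 TPM, each overlapping its neighbour in this order. Kcnq1 (36.6 ± 1.38 TPM), Kcna5 (36.1 ± 2.26 TPM), Cacnb2 (32.1 ± 3.10 TPM), Kcna6 (31.9 ± 1.73 TPM) and Hcn2 (30.0 ± 2.28 TPM) came next, and the range of each over 3 mice overlapped that of its neighbour. The 10 most abundant genes held 43.2% of all channel TPM in wild types and the 25 most abundant held 69.1%.

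**Figure D1:**
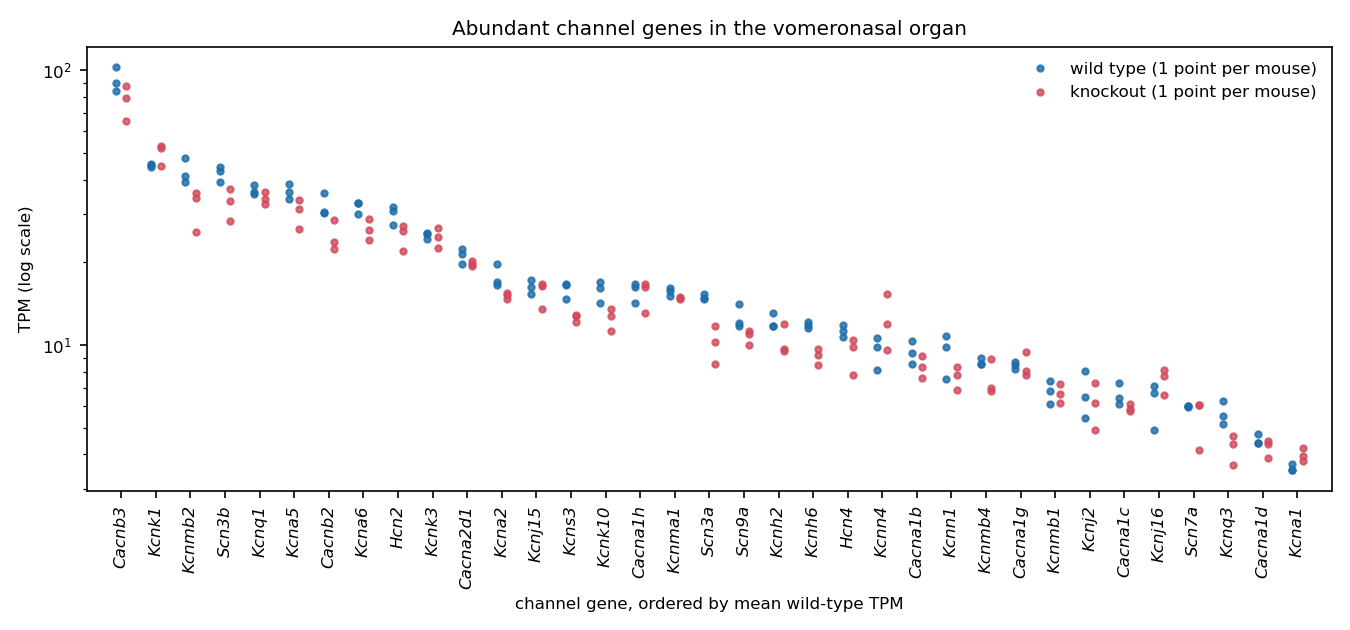
Abundance of 35 channel genes with a level given in the text, ordered by mean wild-type level, in TPM on a log scale, with 1 point per mouse (blue, wild type; red, knockout). Cacnb3 stands above the rest at 92.2 TPM in wild types, and Kcnk1 follows at 45.1 TPM.

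Within each class a few genes held most of the signal. Among voltage-gated potassium alpha subunits, Kcna5, Kcna6 and Kcna2 (17.7 ± 1.74 TPM) led, followed by Kcns3, an electrically silent subunit that modifies other potassium channels, at 15.97 ± 1.07 TPM. Of the wild-type reads of Kcna6, 89.1% ± 3.22 were assigned to Kcna6-201, a transcript annotated as subject to nonsense-mediated decay. A processed transcript, Kcna6-203, took 9.72% ± 1.33. The protein-coding Kcna6-202 had 0, 0 and 286.3 estimated reads in the wild types. Kcna1, Kcna5 and Kcna6 lie next to each other on chromosome 6, where Kcna1 had only 3.56 ± 0.107 TPM. The Kcnd genes, which carry A-type current in many neurons, summed to 2.54 ± 0.527 TPM, and the Kcnc genes of fast-spiking neurons to 6.07 ± 0.760 TPM.

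Sodium channel alpha subunits were led by Scn3a at 14.97 ± 0.339 TPM, a pore best known from embryonic neurons, and Scn9a at 12.6 ± 1.31 TPM, a pore of sensory neurons. These 2 genes and 3 others lie in a cluster on chromosome 2, in which Scn7a had 5.99 ± 0.0317 TPM, Scn2a 2.20 ± 0.447 TPM and Scn1a 0.0253 TPM. Scn8a, on another chromosome, had 3.00 ± 0.139 TPM. Among beta subunits, Scn3b had the highest level, and Scn2b stayed under 1 TPM. Near-identical sequence could trade reads within the cluster: 90.4% of the 31-base words of Scn3a and 93.9% of those of Scn9a occur in no other gene.

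Calcium channel pores were led by Cacna1h, a T-type channel, at 15.7 ± 1.32 TPM. Cacna1b (N-type, 9.41 ± 0.889 TPM), Cacna1g (T-type, 8.44 ± 0.282 TPM), Cacna1c (L-type, 6.59 ± 0.610 TPM) and Cacna1d (L-type, 4.51 ± 0.210 TPM) followed, while Cacna1i and Cacna1e stayed under 0.1 TPM. Accessory subunits of calcium channels summed to 198.1 ± 17.5 TPM against 48.3 ± 2.89 TPM for the pores. This sum was carried by Cacnb3, Cacnb2 and Cacna2d1 (21.2 ± 1.32 TPM), together with Cacng7, Cacng5 and Cacng2 of a family that also binds AMPA receptors.

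Channels described in vomeronasal neurons by earlier physiology were unevenly represented. Hcn2 and Hcn4 (11.3 ± 0.551 TPM) were the Hcn genes above 1 TPM in each wild type, and Hcn3 (0.921 ± 0.148 TPM) was near it. For Hcn3, 17.1% of the exonic bases overlap a gene on the other strand and 83.6% of its 31-base words occur in no other gene. Of the ERG genes, Kcnh2 had 12.2 ± 0.753 TPM, Kcnh6 11.8 ± 0.338 TPM and Kcnh7 2.49 ± 0.269 TPM. Kcnma1, the pore of the large-conductance calcium-activated (BK) channel, had 15.6 ± 0.475 TPM, and the calcium-activated genes Kcnn4, Kcnn1 and Kcnn2 had 9.51 ± 1.26, 9.39 ± 1.67 and 3.16 ± 0.195 TPM. Of the G protein-gated rectifiers, Kcnj5 had 4.09 ± 1.29 TPM, Kcnj3 0.327 ± 0.110 TPM, Kcnj9 0.0624 ± 0.0239 TPM and Kcnj6 0.0433 ± 0.0176 TPM. The inward rectifiers were led by Kcnj15 at 16.3 ± 0.971 TPM, with Kcnj2 at 6.64 ± 1.34 TPM.

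Among the Kcnmb members, which encode BK accessory subunits, Kcnmb2 had the highest level, above Kcnmb4 (8.65 ± 0.250 TPM) and Kcnmb1 (6.76 ± 0.652 TPM). Its product gives BK current fast inactivation, whereas that of Kcnmb1 belongs to smooth muscle BK channels. Smooth muscle and pericyte markers summed to 1831 to 2154 TPM in wild types and 1686 to 2043 TPM in knockouts. Their part in the level of Kcnmb1 was not tested.

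The second question was which channel genes differ between genotypes. Of the 136 genes, 112 had enough reads to be tested, in a fit of all 16679 genes with edgeR's quasi-likelihood F test. A gene was called when its Benjamini-Hochberg adjusted p was under 0.05. Scn3a, Kcnq3 and Kcnmb2 were called, all 3 lower in knockouts by about the same proportion, and no channel gene was called higher. That is 3 of 112 channel genes, against 0.761% of all genes tested (0.683% lower and 0.0779% higher). Differences are given from TMM-scaled CPM.

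Scn3a (ENSMUSG00000057182.14, chromosome 2, positions 65457118 to 65567627, minus strand, GRCm38) had 69.3, 68.0 and 68.2 CPM in wild types and 56.0, 52.3 and 52.9 CPM in knockouts. All knockouts lay below all wild types, and the gap between the groups was larger than the range of either. The log2 fold change was -0.35 (SE 0.05, adjusted p = 0.0177, edgeR), which leaves the knockout mean at 53.7 ± 2.01 CPM. On the TPM scale the difference was wider, with 14.8, 14.7 and 15.4 TPM against 10.3, 8.55 and 11.7 TPM. When the fit took each gene's effective length as an offset, the log2 fold change was -0.49 (adjusted p = 0.0241, edgeR). Kcnq3 and Kcnmb2 were not called in that fit.

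Kcnq3 (ENSMUSG00000056258.9, chromosome 15, positions 65986387 to 66286642, minus strand) encodes a pore subunit of the M-current, the slow potassium current that restrains repetitive firing. Wild types had 45.8, 43.5 and 48.3 CPM and knockouts 36.6, 34.9 and 36.7 CPM, again without overlap. Its log2 fold change was -0.35 (SE 0.06, adjusted p = 0.0354, edgeR). Kcnq1, the most abundant Kcnq gene, had 75.6 ± 4.06 CPM in wild types and 75.6 ± 3.27 CPM in knockouts.

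Kcnmb2 (ENSMUSG00000037610.15, chromosome 3, positions 31902507 to 32200180, plus strand) had 65.5, 69.5 and 68.4 CPM in wild types and 51.2, 52.3 and 56.5 CPM in knockouts. The groups did not overlap, and the log2 fold change was -0.35 (SE 0.06, adjusted p = 0.0362, edgeR). The BK pore Kcnma1 had 81.4 ± 6.32 CPM in wild types and 80.4 ± 6.08 CPM in knockouts, so the difference between groups was smaller than the spread within them. Kcnmb4 (7.65 ± 0.663 and 7.08 ± 0.512 CPM) and Kcnmb1 (20.6 ± 1.15 and 21.5 ± 1.92 CPM) were not called.

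Most of these calls were lost when 1 library was left out. With a wild-type library left out, none of the 3 genes passed: Scn3a had adjusted p = 0.0801, 0.0757 and 0.0506 without wild-type replicates 1, 2 and 3, Kcnq3 0.167, 0.0798 and 0.14, and Kcnmb2 0.0835, 0.159 and 0.117 (edgeR). Scn3a stayed called without knockout replicate 1 and Kcnmb2 without knockout replicate 3. Without knockout replicate 1, 2 or 3 the values were 0.0415, 0.0645 and 0.0641 for Scn3a, 0.128, 0.105 and 0.0805 for Kcnq3, and 0.153, 0.105 and 0.0317 for Kcnmb2. The size of the difference moved little, between -0.49 and -0.33 for Scn3a, -0.39 and -0.31 for Kcnq3 and -0.39 and -0.32 for Kcnmb2 over 17 alternatives.

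**Figure D2:**
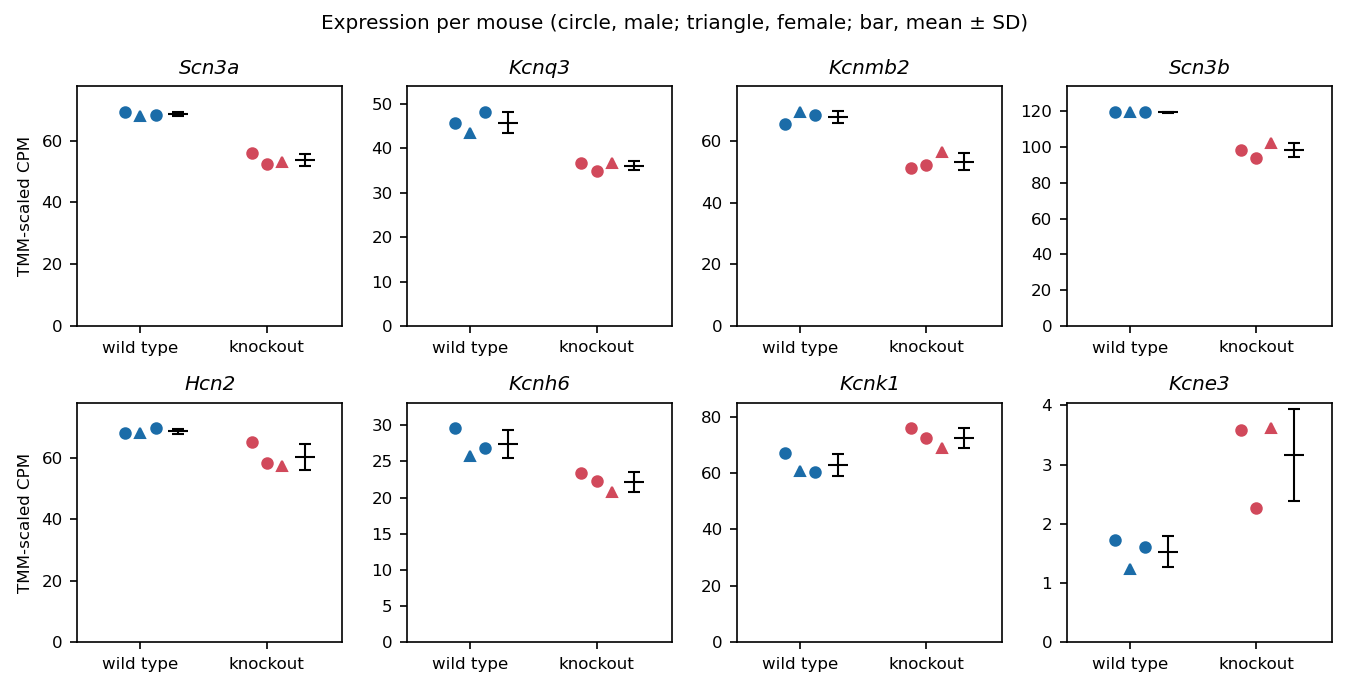
TMM-scaled CPM of 8 channel genes in each mouse, with wild types in blue and knockouts in red, circles for males and triangles for females, and the mean ± SD of 3 mice beside them. The upper row shows the 3 called genes and Scn3b, in which every knockout lies below every wild type, and the lower row shows genes that were not called, of which Kcnk1 and Kcne3 have every knockout above every wild type.

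Scn3b, whose product associates with sodium channel alpha subunits, was just outside the threshold. Wild types had 119.8, 119.4 and 119.5 CPM and knockouts 98.4, 94.2 and 102.2 CPM, so the wild types were nearly identical and the groups did not overlap. The log2 fold change was -0.28 (SE 0.05, adjusted p = 0.0662, edgeR). It passed with robust dispersion estimates (adjusted p = 0.0474, edgeR) and with DESeq2 (adjusted p = 0.000357).

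The remaining genes among the 10 with the smallest p-values were Cacng2, Kcne3, Cacnb2, Kcns3, Cacnb4 and Kcnh6. None of these 6 was called with edgeR, and all 6 were called with DESeq2. Cacng2 had a log2 fold change of -0.32 (adjusted p = 0.115), Cacnb2 -0.23 (adjusted p = 0.121), Kcns3 -0.28 (adjusted p = 0.123), Cacnb4 -0.46 (adjusted p = 0.129) and Kcnh6 -0.31 (adjusted p = 0.174, all edgeR). In each of these 5 every knockout lay below every wild type. For Cacnb4 the value depended on the scale, since it was -0.85 with effective lengths as an offset, and 15.99% of its exonic bases overlap a gene on the other strand.

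Kcne3, a small subunit that holds Kcnq1 channels open, went the other way. Wild types had 1.74, 1.24 and 1.61 CPM and knockouts 3.59, 2.26 and 3.62 CPM, so the knockouts were all above the wild types but spread widely. The log2 fold change of 1.05 (SE 0.23, adjusted p = 0.117, edgeR) was the largest of any channel gene tested. It passed without knockout replicate 2 (log2 fold change 1.24, adjusted p = 0.0476, edgeR) and with DESeq2 (adjusted p = 0.00235). It also passed with the replicate number as a block (log2 fold change 1.03, adjusted p = 0.0494, edgeR), but had adjusted p = 0.485 in males alone (edgeR).

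With DESeq2, 11 of 135 channel genes were called, against 1.76% of all genes it tested. Of these, 10 were lower, namely the 3 genes above with Scn3b, Cacnb4, Cacng2, Cacnb2, Kcns3, Kcnh6 and Kcna6, and Kcne3 was higher. The count thus depended on the tool by more than 1.5 times. At an unadjusted p under 0.05, edgeR placed 26 of 112 channel genes (background 10.5%), of which 23 were lower (background 5.99%) and 3 higher (background 4.55%).

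Most differences of single channel genes were small and negative. Of the 112 tested, 74 had a log2 fold change below 0, where the background over all genes was 47.7%, and the median was -0.08 against 0.0058 for all genes. In 23 genes every knockout lay below every wild type (background 8.95%), and in 6 every knockout lay above (background 7.22%). The share was larger among abundant genes. Of the 29 with a mean of at least 10 TPM, 23 were below 0, with a median of -0.15, and 13 had non-overlapping lower values. Of the 30 tested genes with a mean under 1 TPM, 18 were below 0, with a median of -0.03.

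**Figure D3:**
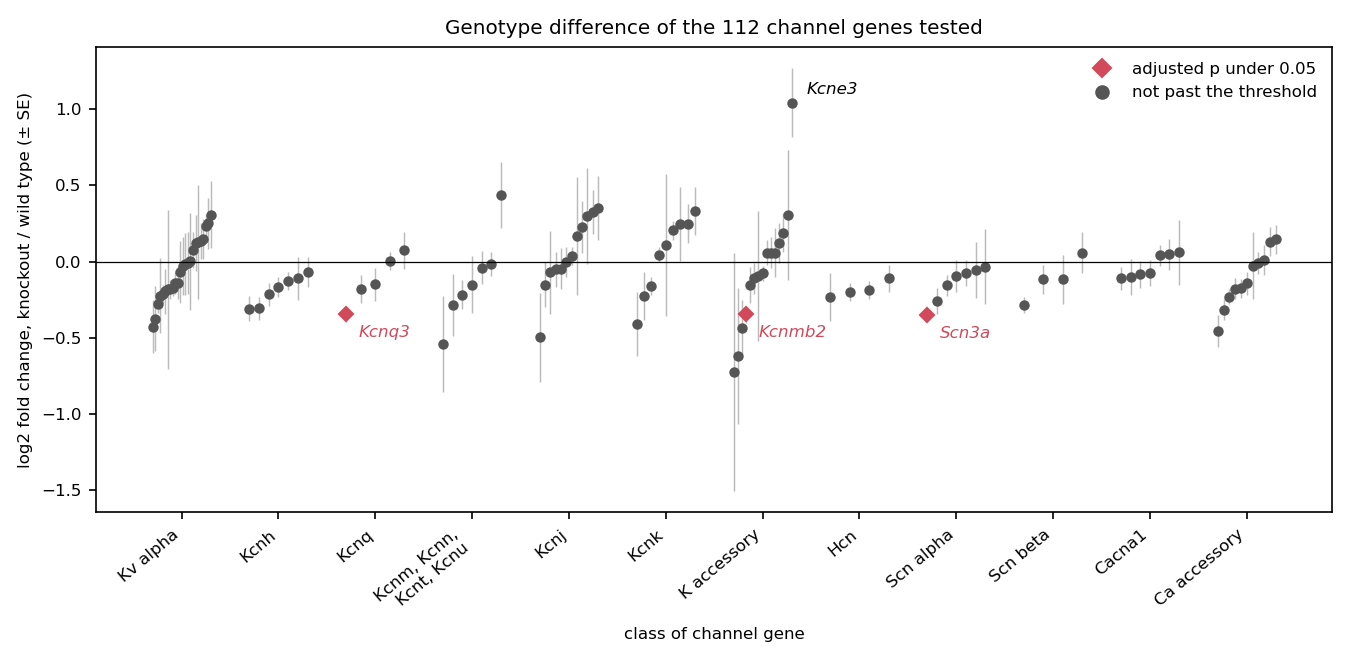
Log2 fold change of knockout over wild type (± SE, edgeR) for the 112 channel genes tested, sorted within 12 classes, with red diamonds for the 3 genes past the adjusted threshold of 0.05. The 3 called genes sit near -0.35 in different classes, every tested Kcnh, Hcn and Scn alpha gene lies below 0, and Kcne3 at 1.05 is the highest point.

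By class, all 7 tested Kcnh genes, all 7 sodium channel alpha genes and all 4 Hcn genes had log2 fold changes below 0, with medians of -0.17, -0.09 and -0.19. Apart from Scn3a none of these 18 genes was called with edgeR, and DESeq2 added Kcnh6. At an unadjusted p under 0.05 there were 4 Kcnh, 2 sodium channel alpha and 2 Hcn genes, against 10.5% of all genes tested and 26 of the 112 channel genes. These classes are described because all their genes lay below 0, so that direction is no test of them. Of the ERG genes, Kcnh6 had 29.6, 25.8 and 26.9 CPM in wild types and 23.5, 22.3 and 20.7 CPM in knockouts. Kcnh7 (log2 fold change -0.31, adjusted p = 0.217) and Kcnh2 (-0.17, adjusted p = 0.421, both edgeR) also had every knockout below every wild type. ERG channels help membranes repolarize and are known to shape spike output in vomeronasal neurons.

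Hcn2, the most abundant Hcn gene, had 68.2, 68.1 and 69.7 CPM in wild types and 65.1, 58.5 and 57.5 CPM in knockouts. Hcn4 had 52.7, 49.5 and 51.0 CPM against 46.7, 41.0 and 45.5 CPM. The groups of both genes were separate but close, and neither was called (log2 fold change -0.19, adjusted p = 0.315, and -0.20, adjusted p = 0.271, edgeR). Pex5l, whose product is an Hcn accessory subunit, had 60.8 ± 1.33 CPM in wild types and 50.7 ± 0.877 CPM in knockouts and was not called (adjusted p = 0.0522, edgeR).

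Sodium channel pores beside Scn3a differed less. Scn9a had 88.7 ± 6.38 CPM in wild types and 79.6 ± 4.74 CPM in knockouts, a log2 fold change of -0.16 (adjusted p = 0.499, edgeR). Scn8a had 14.9 ± 1.26 and 12.4 ± 0.747 CPM (log2 fold change -0.26, adjusted p = 0.334, edgeR, but -0.03 with effective lengths as an offset), and Scn7a 32.9 ± 2.18 and 31.6 ± 8.76 CPM. In the last of these, knockout replicate 3 was low at 21.7 CPM beside 34.7 and 38.4 CPM in the other knockouts. Fgf12, whose product binds sodium channel tails, had 146.4 ± 14.1 CPM in wild types and 114.7 ± 12.8 CPM in knockouts and was not called (adjusted p = 0.233, edgeR).

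Among voltage-gated potassium alpha subunits 24 were tested and none was called with edgeR, with 6 at an unadjusted p under 0.05 (background 10.5%) and 2 called with DESeq2, Kcns3 and Kcna6 (background 1.76%). Kcna6 (114.5 ± 5.51 and 98.8 ± 2.57 CPM, log2 fold change -0.21, adjusted p = 0.217) and Kcna5 (73.5 ± 2.24 and 65.2 ± 2.41 CPM, log2 fold change -0.17, adjusted p = 0.273) had separate, lower knockout values. Their neighbour Kcna1 had separate, higher ones, at 10.4 ± 0.606 and 12.2 ± 0.581 CPM (log2 fold change 0.23, adjusted p = 0.346, edgeR). Of the exonic bases of Kcna6, 39.6% overlap a gene on the opposite strand, and the libraries are directional, but whether the quantification used strand is not given in the sources used here.

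Calcium channel pores showed little difference. All 7 tested had log2 fold changes between -0.11 and 0.06, in none did the groups separate, and none was called with edgeR or DESeq2 or had an unadjusted p under 0.05. Cacna1h had 72.4 ± 6.27 CPM in wild types and 68.3 ± 6.54 CPM in knockouts, and Cacna1b 59.1 ± 5.21 and 54.8 ± 3.37 CPM. Among the accessory subunits, 5 of 11 (Cacnb3, Cacnb2, Cacnb4, Cacng2 and Cacng5) had every knockout below every wild type, against 8.95% of all genes tested. Cacnb3 had 160.8, 154.5 and 174.5 CPM in wild types and 147.8, 134.4 and 150.3 CPM in knockouts (log2 fold change -0.18, adjusted p = 0.41, edgeR).

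Two-pore and inwardly rectifying potassium channels had medians of 0.11 and 0.02, and none of their 21 tested genes was called with edgeR or DESeq2, although 2 of the 21, both two-pore genes, had an unadjusted p under 0.05, a share near the background of 10.5%. Kcnk1 had 67.2, 60.7 and 60.2 CPM in wild types and 75.9, 72.3 and 68.8 CPM in knockouts, with every knockout higher (log2 fold change 0.21, adjusted p = 0.294, edgeR). Kcnk10 had 34.4 ± 0.973 and 30.7 ± 1.58 CPM, with every knockout lower (log2 fold change -0.16, adjusted p = 0.381, edgeR). Kcnk3 had 67.7 ± 2.71 and 69.9 ± 1.29 CPM and Kcnj15 56.8 ± 2.01 and 58.3 ± 3.19 CPM, differences near the spread within a group. Kcnj16 had 16.5 ± 3.50 and 20.7 ± 1.51 CPM (log2 fold change 0.32, adjusted p = 0.493, edgeR), a value that fell to 0.16 without wild-type replicate 2.

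No calcium- or sodium-activated potassium pore was called with edgeR or DESeq2 or had an unadjusted p under 0.05. Kcnn4 had 15.5, 12.9 and 10.4 CPM in wild types and 21.7, 18.6 and 12.2 CPM in knockouts, which overlapped (log2 fold change 0.44, adjusted p = 0.537, edgeR). Its value moved from 0.25 without knockout replicate 1 to 0.64 without knockout replicate 3. Kcnn1 had 14.97 ± 0.994 and 12.9 ± 1.43 CPM (log2 fold change -0.22, adjusted p = 0.482, edgeR).

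TPM was also summed over each class. All channel genes together had 907, 960 and 1010 TPM in wild types and 868, 770 and 900 TPM in knockouts, so the groups were separate by a narrow margin. Calcium accessory subunits had 198.1 ± 17.5 TPM in wild types and 166.4 ± 18.3 TPM in knockouts, and sodium beta subunits 67.0 ± 3.46 and 54.7 ± 4.56 TPM. Two-pore channels had 97.4 ± 3.05 and 98.6 ± 9.21 TPM. Knockout replicate 2 was the lowest library in 11 of the 12 classes, the exception being the calcium- and sodium-activated potassium channels.

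**Figure D4:**
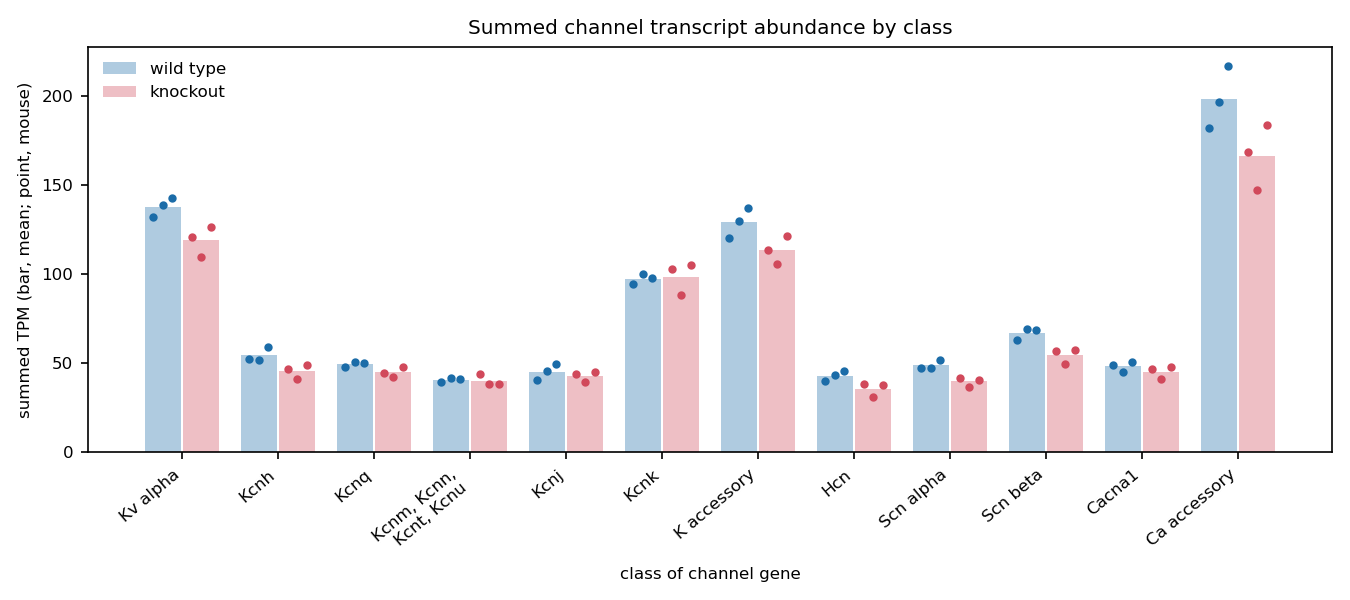
Summed TPM of the members of each of 12 channel classes, with bars for the mean of 3 mice and 1 point per mouse (blue, wild type; red, knockout). Two-pore (Kcnk) channels have bars of similar height at 97.4 and 98.6 TPM, while calcium accessory subunits stand at 198.1 TPM in wild types and 166.4 TPM in knockouts.

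Markers of basal and of mature neurons also had median log2 fold changes below 0 (-0.36 and -0.32). Those of basal neurons, the class with the G protein gene Gnao1, had every knockout below every wild type in 6 of 6 genes (background 8.95%). Of these, Gnao1 (log2 fold change -0.41, adjusted p = 0.0143) and Vmn2r1 (-0.72, adjusted p = 0.000612, edgeR) were called lower. Over all genes tested, 0.683% were called lower and 0.0779% were called higher. Basal markers summed to 1400 to 1628 TPM in wild types and 1129 to 1370 TPM in knockouts. Of this, B2m held 798.8 ± 62.5 and 718.7 ± 42.6 TPM and was not called (log2 fold change -0.08, adjusted p = 0.691, edgeR). Gng8, at 451.8 ± 44.1 and 347.8 ± 65.2 TPM, is in both the basal and the mature list, so their sums are not independent. Of the markers of mature vomeronasal neurons 4 of 5 were below 0, with Stom called lower (adjusted p = 0.0356, edgeR), and the list summed to 1972 to 2282 TPM against 1470 to 1885 TPM. None of 4 apical markers was called with edgeR or DESeq2 (1 at an unadjusted p under 0.05), at a median of 0.12 and sums of 590 to 644 TPM against 572 to 725 TPM. All 6 markers of immature neurons and progenitors were above 0, at a median of 0.45 and sums of 76.2 to 107.5 TPM against 79.1 to 110.9 TPM, and Top2a was called higher (adjusted p = 0.0421, edgeR). DESeq2 called 4 of 6 basal, 4 of 5 mature and 2 of 6 immature and progenitor markers, against 1.76% of all genes. No defining marker of these lists was at 0, and their part in the lower channel genes was not tested.

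Genes that work beside these channels were compared in the same way. With edgeR none of 17 tested channel partners, 12 other membrane conductances and 14 ion pumps and transporters was called, while 3, 3 and 1 of them had an unadjusted p under 0.05 (background 10.5%). DESeq2 called 4 of these genes lower (background over both directions 1.76%), namely Pex5l, Fgf12, Ano2 and Trpc2. Lrrc26, a further accessory subunit of BK channels, had a level of 87.6 ± 8.14 TPM in wild types, above Kcnmb2. Its values were 66.4 ± 10.7 CPM in wild types and 77.1 ± 14.5 CPM in knockouts. Trpc2, the cation channel of vomeronasal transduction, had 311.7 ± 28.0 and 249.8 ± 17.2 CPM (log2 fold change -0.32, adjusted p = 0.197, edgeR), and Ano2, a calcium-activated chloride channel, 93.8 ± 2.01 and 78.2 ± 3.70 CPM (-0.26, adjusted p = 0.107, edgeR).

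The estimates were also compared per transcript, adjusted over 43405 transcripts. Of 255 transcripts of channel genes, 1 was called, against 0.108% of all transcripts (0.0945% lower). It was Cacna1d-207, a protein-coding transcript of the L-type calcium channel gene, with 145.4, 118.3 and 189.7 estimated reads in wild types and 0 reads in all 3 knockouts (adjusted p = 0.0402, edgeR). This is at least 46.6-fold lower, against a floor of 3 reads per library. In wild types it took 12.2% ± 1.45 of the gene's reads.

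The gene as a whole did not differ, with 18.2 ± 0.802 CPM in wild types and 18.7 ± 1.04 CPM in knockouts. Another protein-coding transcript, Cacna1d-209, had 107.4, 43.8 and 62.2 reads in wild types and 187.2, 244.9 and 124.4 reads in knockouts, and was not called (adjusted p = 0.755, edgeR). The call of Cacna1d-207 was lost with sex as a term (adjusted p = 0.247) and with the replicate number as a block (adjusted p = 0.691, both edgeR). It was also lost without any 1 library (adjusted p = 0.242 to 0.276 without a wild type, 0.11 to 0.126 without a knockout, edgeR). Reads shared by transcripts of 1 gene are divided by estimation, and that error is not in the test. Its model is 6928 bases long in the tables and 6564 bases in GENCODE M21, so its exons are not described here.

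**Figure D5:**
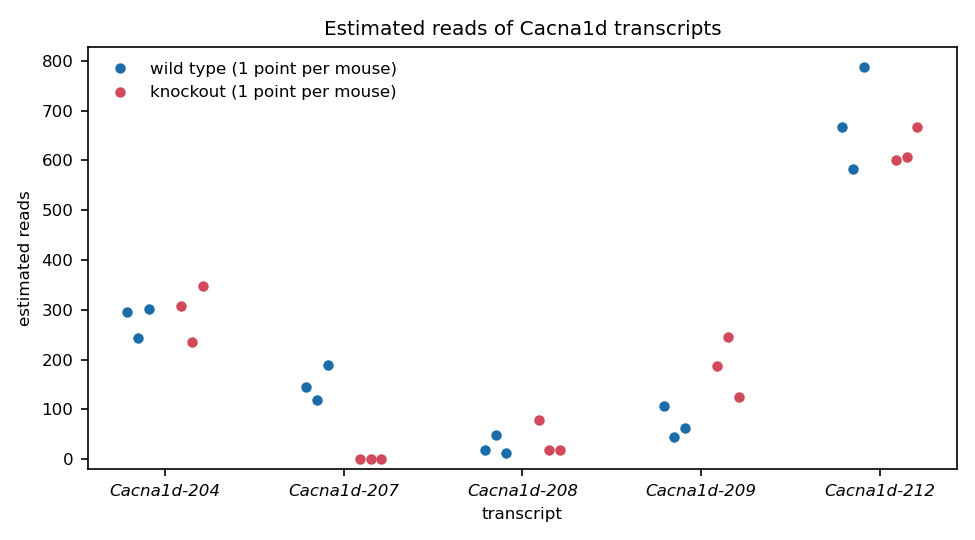
Estimated reads of 5 Cacna1d transcripts per mouse (blue, wild type; red, knockout). Cacna1d-207 has 118.3 to 189.7 reads in wild types and 0 in every knockout, whereas Cacna1d-209 is higher in knockouts, at 124.4 to 244.9 reads.

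Promoter sequence could be examined for only some of the members that had lower values. RefSeq promoter windows of GRCm38.p6 were matched by symbol for 99 of the 136 genes, Kcnmb2 and Kcnh6 among them. The called genes Scn3a and Kcnq3 had no window, and neither had Scn3b. The windows of Cacng2, Cacnb2 and Cacnb4 held 0 bases before an annotated exon, and that of Kcns3 held 36, which are not shown. Each window holds the 250 bases before the RefSeq start. The stretches below are the part of it before the first base of any annotated exon, 54 bases for Kcnmb2 and 226 for Kcnh6, and are shown for the called BK subunit and for the ERG gene with the lowest p-value. Capitals mark the 2 half-sites of REST, which represses neuronal genes in cells that are not neurons, and the 54 bases of Kcnmb2 hold neither.
Kcnmb2, chr3:31902453-31902506, plus strand: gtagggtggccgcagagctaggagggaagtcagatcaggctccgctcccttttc
Kcnh6, chr11:106007898-106008123, plus strand: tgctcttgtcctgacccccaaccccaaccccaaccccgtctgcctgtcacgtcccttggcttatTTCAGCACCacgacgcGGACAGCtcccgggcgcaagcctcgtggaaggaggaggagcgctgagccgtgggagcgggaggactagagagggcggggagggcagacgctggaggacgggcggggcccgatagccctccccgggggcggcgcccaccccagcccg

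Motifs were counted on both strands in the whole 250-base window, exon bases included, of 99 channel genes and of all 27025 promoters in the table. The GC box GGCGGG was in 46.5% of channel promoters and in 32.6% of all promoters, the CCAAT box in 26.3% and 34.5%, and TATAAA in 3.03% and 13.0%. The half-sites TTCAGCACC and GGACAGC were searched after the Kcnh6 window had been read. Both occur in the Kcnh6 window, 7 bases apart, and together in 3 of the 27025 promoters (0.011%). The full site at its usual spacing was in no channel promoter and in 1 of all promoters. These counts describe letters and not binding.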

How the data were processed

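Poly(A) RNA of the vomeronasal organ was sequenced from directional libraries of 6 mice, 1 library per mouse. The authors deposited, per the file headers, an estimated count and a TPM value for each of 117081 transcripts in each library. Trim Galore 0.6.6, Salmon 1.9.0 and DESeq2, with the builds mm10 and GRCm38, are listed in the submitters' processing notes. The index and strand setting are not given in the sources used here.

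Transcripts were joined to GENCODE M21 genes by identifier. Of them, 1139 had no match and 0.304% of reads, and were left out. The expected counts deposited were summed per gene and rounded. Tests used edgeR 4.0.16 (R 4.3.3): TMM scaling, filterByExpr, the quasi-likelihood F test with genotype as the term, and Benjamini-Hochberg adjustment over all genes. An SE is the log2 fold change divided by the root of F. The common coefficient of variation was 12.8%. Alternatives used DESeq2 1.42.0, limma 3.58.1, other scalings, filters and terms, and each library left out. Scripts were tested on simulated data.

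Named genes were those called, the 25 most abundant, the 2 most abundant per class, the 10 with the smallest p, channels described in vomeronasal neurons, and genes with a called transcript. Other members were named to complete a class or count, after their values were seen. A few genes are not reported here by name. The members and lists were chosen with earlier results of these data known. Floors cover counting error only, whereas SDs and SEs include the spread between mice.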

Additional observations from a re-analysis of the deposited data

How the results depend on the processing

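The direction of each log2 fold change given for a channel gene was kept under all 17 alternatives. The size of some that were not called moved by over 1.5 times, with Scn9a at -0.10 without wild-type replicate 3, Kcnk10 at -0.25 with effective lengths as an offset and Kcnj16 at 0.20 in males alone. The number of channel genes called, 3 in the analysis reported, was 11 with DESeq2, 0 without scaling factors (27 at an unadjusted p under 0.05, edgeR, and 0.576% of all genes called), 0 in males alone (22 at an unadjusted p under 0.05, edgeR, and 0.453% of all genes called) and 1 with effective lengths as an offset (0.63% of all genes). It was 0 to 1 with 1 library left out (19 to 26 at an unadjusted p under 0.05, edgeR, and 0.409% to 0.569% of all genes called, against 0.761% with all libraries). Without scaling factors the median of all genes moved from 0.0058 to -0.0253. With limma-voom and with sex as a term, Kcnq3 was lost (adjusted p = 0.0502 and 0.0641). The number of channel transcripts called, 1, was 0 with sex as a term, 0 with the replicate block and 0 with any 1 library left out (20 to 27 at an unadjusted p under 0.05, edgeR). Over all transcripts tested, the number called fell from 47 to 4 with sex as a term and to 1 with the replicate block. It was 1 to 12 with 1 library left out, so the loss was not particular to channel transcripts. Channel genes detected numbered 43 at 5 TPM in place of 81 at 1 TPM, and 81 to 82 without 1 wild type.

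Replicate numbers were shared between genotypes. Deviations of same-numbered libraries from their group means had correlations of 0.15, -0.09 and 0.23. Those of libraries with unlike numbers lay between -0.29 and 0.17. Same-numbered libraries thus share a number and nothing further was paired. With the replicate block, 4 channel genes were called in place of 3, Kcne3 being added (log2 fold change 1.03, adjusted p = 0.0494, edgeR). Calls over all genes rose as well, to 0.923% from 0.761%, with 33 genes called higher in place of 13.

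With 3 mice per genotype and differences of about -0.35, calls lie close to the threshold, and low genes such as Kcnj6 (2 to 14 reads per library) were tested only without the filter and with DESeq2.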

Other observations

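Scn7a and Kcnj5 were spread widely within a genotype, and neither was called. Scn7a had 34.7 and 38.4 CPM in knockout replicates 1 and 2, both male, and 21.7 CPM in replicate 3, a female. The 3 wild types lay between 31.3 and 35.4 CPM, with the female at 31.9 CPM. Of the main olfactory markers, Gnal was also low in knockout replicate 3 (48.9, 55.7 and 19.3 CPM in replicates 1 to 3), whereas Rtp1 was not (332.2, 329.0 and 327.6 CPM). Their relation to Scn7a was not tested. Kcnj5, a G protein-gated rectifier, varied within both genotypes, with 8.67, 14.8 and 13.7 CPM in wild types and 6.62, 13.0 and 6.74 CPM in knockouts.

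Kcnc1, a fast voltage-gated potassium channel, was one of the 6 genes with every knockout above every wild type. Its level was low, at 0.665, 0.675 and 0.604 CPM in wild types and 0.836, 0.874 and 0.700 CPM in knockouts, and it was not called.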
